A study of Homo sapiens with 8 samples.

Results

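The proteasome subunit genes were followed in LS174T, a human cell line established from a colon adenocarcinoma. Doxycycline switched on a short hairpin RNA in these cells, directed at the intestinal stem cell factor ASCL2 in one derivative and at a long non-coding RNA, WiNTRLINC1, in the other. Members were the protein-coding genes with a PSMA, PSMB, PSMC, PSMD, PSME or PSMF symbol and a number, without PSMB8 and PSMB9, found through their Ensembl identifiers. The rule named 42 symbols, of which 41 matched 1 of the 57736 identifiers listed for each library, and PSMB3 is not analysed here. There were 16 core particle genes, 17 regulatory particle genes, 3 assembly chaperones of the base and 5 genes for other activators and an inhibitor. RNA had been sequenced in 8 libraries, 2 in each of 4 groups: the ASCL2 line grown for 3 days with doxycycline at 1 ug/ml, the ASCL2 line grown for 3 days without it, the WiNTRLINC1 line with doxycycline and the WiNTRLINC1 line without it. All 4 groups carry a hairpin construct, the untreated ones included, and the parent cells of the WiNTRLINC1 line overexpress the Tet repressor. No doxycycline-treated cells without a hairpin were measured, so the effect of the drug and that of the hairpin cannot be told apart. The WiNTRLINC1 line was picked among cell clones by its knockdown and the ASCL2 line was made in earlier work, so differences between the lines cannot be told apart from differences between clones. Titles and genotype labels contradict each other in every sample as to the target, and the groups here follow the titles. Nothing in the labels says that the 2 libraries of a group were separate cultures, so p-values cover the spread between these libraries alone, and that spread may be technical.

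The proteasome degrades proteins that carry a ubiquitin chain. Its core particle is a barrel of stacked rings, with alpha subunits that form the gate and beta subunits, of which PSMB5, PSMB6 and PSMB7 cut the substrate. The regulatory particle caps the barrel: the ATPases and scaffolds of its base bind and unfold the substrate, and its lid removes the ubiquitin chain. Colon cancer cells rely on it as other cells do, and among its substrates is beta-catenin, the effector of the Wnt pathway that also controls ASCL2. Interferon switches on variants in which PSMB8, PSMB9 and PSMB10 replace the usual cutting subunits.

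The deposited values of the genes are whole numbers that look like read counts scaled per library and rounded, and their totals per library lay between 21524463 and 22941231. The 39 members that passed the filter on low values made up 0.555% to 0.629% of these totals. ASCL2 was 532 and 586 with doxycycline against 2855 and 3373 without it in the ASCL2 line, and 805 and 697 with doxycycline against 2540 and 2034 without it in the WiNTRLINC1 line. It was thus lower with doxycycline in both lines and does not settle which label is right. All 9 markers of colon epithelium were tested and their summed value lay between 105545 and 221700 in the 8 libraries. The summed values of the 7 fibroblast, 6 immune and 3 endothelial markers lay between 13 and 309 in any group, and no marker was at 0 in all libraries. The fibroblast sum was 187 to 193 in the treated ASCL2 line, against 303 to 309 in the untreated one. Within this sum COL1A1 had 60 and 99 in treated cells, against 200 and 222 in untreated ones. The other tested fibroblast markers did not fall, with log2 fold changes of 0.01 for COL3A1, 0.43 for PDGFRB and 0.90 for LUM. The part of such cells in the results was not tested.

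Most of the proteasome was abundantly expressed, and the level differed widely between subunits. Of the 41 members, 35 had a mean value of at least 500 over the 8 libraries. Divided by transcript length, the noncatalytic beta subunit PSMB4 was highest, with a mean of 6861 per kb over all libraries, followed by the nuclear activator PSME3 with 6489 and the alpha subunit PSMA7 with 6168 per kb. The cutting subunits lay close together, with PSMB6 at 3795, PSMB5 at 3685 and PSMB7 at 3226 per kb. The lowest tested members were PSMB10, the interferon-induced counterpart of PSMB7, at 85.0 per kb, and the base chaperone PSMD9, at 89.5 per kb. The alpha subunits PSMA2 and PSMA6 were also low, at 122 and 269 per kb. PSMA8, a testis form of an alpha subunit, and PSMB11, a thymus form of a beta subunit, did not pass the filter: PSMA8 had values of 0 to 2 and PSMB11 of 1 to 7 in the 8 libraries. These levels order the genes only roughly, because reads may be shared with close copies and how such reads were counted is not known. The values of the named pseudogenes summed to 430% of the value of PSMA2 itself, to 84.0% of that of PSMC1, 68.7% of PSME2, 52.0% of PSMA1, 41.6% of PSMC2 and 39.3% of PSMA6, so these 6 members are uncertain.

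**Figure D1:**
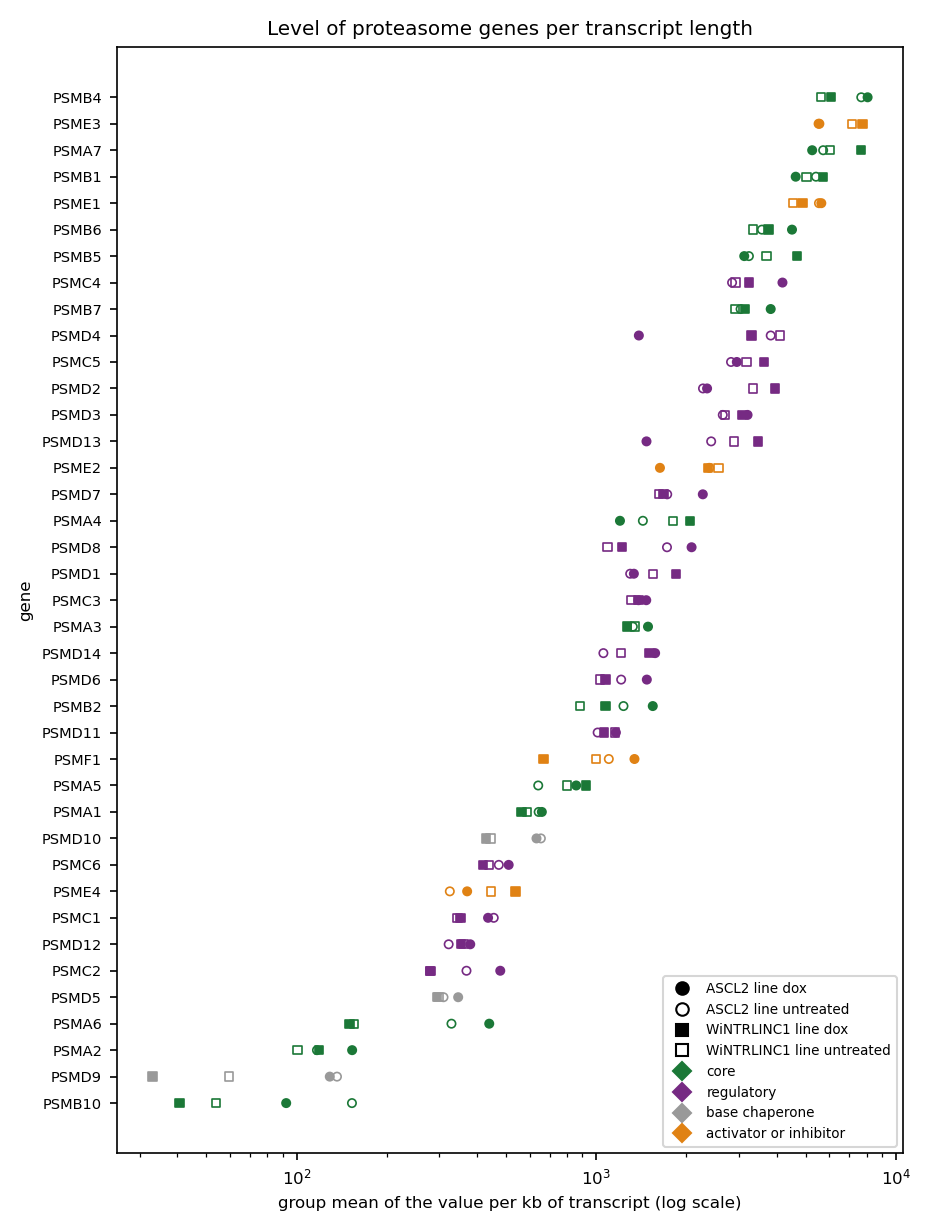
The horizontal axis is the group mean of the deposited value per kb of transcript on a log scale, and each row is 1 of the 39 tested members, ordered by its mean over all libraries. Circles are the ASCL2 line and squares the WiNTRLINC1 line, filled with doxycycline and open without it, and colours mark the particle. PSMB4 stands at the top with 6861 per kb and PSMB10 at the bottom with 85.0 per kb, and the filled circles of PSMD4 and PSMD13 stand left of their rows.

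In the ASCL2 line, subunits were called in both directions with doxycycline, in a share close to that of well expressed genes. Of the 39 tested members, 17 were called at an adjusted p under 0.05, 11 higher and 6 lower, beside 26.6% of the 22100 genes tested (13.9% higher and 12.7% lower). Among the 8438 tested genes that average 500 or more, as 35 of the members do, the called share was 45.2%, and that of the members was 43.6%. The median log2 fold change was 0.11 over the members and 0.01 over all tested genes. In the core particle 4 of 14 tested genes rose and 3 fell, with a median log2 fold change of 0.12. In the regulatory particle 6 of 17 genes rose and 2 fell, with a median of 0.20. Of the 8 lid genes 4 were called higher and 1 lower. A positive log2 fold change was seen in 7 of them (87.5%), beside 50.6% of all tested genes and 55.1% of those averaging 500 or more. Without the first untreated ASCL2 library the medians were 0.07 for the core and 0.12 for the regulatory particle, and without the first treated one that of the core was 0.07. None of the 3 base chaperones was called. In such bulk samples fewer cells of a type and less RNA per cell cannot be told apart.

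The largest change of any member was the fall of PSMD4, a ubiquitin receptor in the base (chromosome 1). It had values of 1801 and 1948 in treated ASCL2 cells, against 5143 and 5185 in untreated ones. Both treated libraries were far below both untreated ones, and the untreated pair differed by little. PSMD4 fell 2.76-fold (log2 fold change -1.46 ± 0.071 SE, 2 libraries a group, limma, BH-adjusted p = 4.58e-09; BH, Benjamini-Hochberg over all tested genes). PIPSL, a retrogene that carries PSMD4 sequence, had 699 and 669 in treated cells, against 1302 and 1132 in untreated ones, so the reads of the pair may be partly shared. With PIPSL and the named pseudogene added to PSMD4, the fold change was -1.31. The neighbouring gene PIP5K1A had a log2 fold change of 0.21 that was not called (limma, BH-adjusted p = 0.102), and ZNF687 on the other side fell by 0.38 (limma, BH-adjusted p = 0.00267).

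PSMD13, a structural subunit of the lid on chromosome 11, was the other regulatory particle gene that fell. Its values were 2774 and 3089 in treated ASCL2 cells, against 5233 and 4405 in untreated ones. The groups did not overlap, and the fall was 1.64-fold (log2 fold change -0.71 ± 0.087 SE, 2 libraries a group, limma, BH-adjusted p = 2.92e-05). Its neighbour SIRT3 covers 6.63% of its exon length on the opposite strand and had a log2 fold change of -0.19 that was not called (limma, BH-adjusted p = 0.195). Whether reads were counted by strand is not given in the sources used here.

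Other regulatory particle genes rose. PSMD14, the deubiquitinase of the lid that cuts the chain off the substrate, had 3212 and 2937 in treated ASCL2 cells, against 2091 and 2041 in untreated ones, a 1.49-fold rise (0.57 ± 0.080 SE on the log2 scale, limma, BH-adjusted p = 0.000105). PSMC4, an ATPase of the base, had 6455 and 6866 in treated cells, against 4616 and 4428 in untreated ones, a 1.47-fold rise (0.56 ± 0.075, limma, BH-adjusted p = 7.28e-05). PSMD7, the lid partner of PSMD14, had 3564 and 4017 in treated cells, against 2882 and 2885 in untreated ones, a 1.31-fold rise (0.39 ± 0.080, limma, BH-adjusted p = 0.00205). In each of these genes both treated libraries were above both untreated ones. The ATPase PSMC2 rose by 0.37 ± 0.094 on the log2 scale (limma, BH-adjusted p = 0.00801), but with close copies at 41.6% of its own value. The lid scaffolds PSMD3 and PSMD6 rose by 0.27 ± 0.072 and 0.28 ± 0.085 on the log2 scale (limma, BH-adjusted p = 0.0105 and 0.0229). The 9 regulatory particle genes that were not called had log2 fold changes between -0.06 and 0.27, among them the base scaffolds PSMD1 and PSMD2, both at 0.04.

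In the core particle the cutting subunits did not move together. PSMB6, the subunit with caspase-like activity, had 3721 and 3955 in treated ASCL2 cells, against 3116 and 2975 in untreated ones, and rose by 0.33 ± 0.071 on the log2 scale (limma, BH-adjusted p = 0.00286). PSMB7, the subunit with trypsin-like activity, had 3551 and 3945 in treated cells, against 3088 and 2859 in untreated ones, and rose by 0.33 ± 0.080 (limma, BH-adjusted p = 0.00628). PSMB5, the subunit with chymotrypsin-like activity and the main target of clinical proteasome inhibitors, had 3985 and 4092 in treated cells, against 4486 and 3886 in untreated ones. Its groups overlapped, and its log2 fold change of -0.05 ± 0.080 was not called (limma, BH-adjusted p = 0.712). The sign of the PSMB5 value was positive, at 0.055, without the first untreated library.

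Among the noncatalytic core subunits, PSMA5 of the alpha ring had 3189 and 3209 in treated ASCL2 cells, against 2453 and 2326 in untreated ones, and rose 1.34-fold (0.42 ± 0.076 on the log2 scale, limma, BH-adjusted p = 0.00079). PSMB2 of the beta ring had 4110 and 4237 in treated cells, against 3389 and 3276 in untreated ones, and rose 1.25-fold (0.32 ± 0.070, limma, BH-adjusted p = 0.00319). For both, the treated libraries stood above the untreated ones without overlap. PSMA4, an alpha subunit of the gate, fell by 0.25 ± 0.075 and PSMB1 of the beta ring fell by 0.22 ± 0.073 on the log2 scale (limma, BH-adjusted p = 0.0207 and 0.0332). The 7 core genes that were not called had log2 fold changes between -0.12 and 0.41.

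The interferon-induced subunits were lower with doxycycline in the ASCL2 line. PSMB10 had 116 and 109 in treated cells, against 200 and 173 in untreated ones, and fell 1.65-fold (log2 fold change -0.72 ± 0.221 SE, limma, BH-adjusted p = 0.0254). It is the least expressed tested member per kb, and an unnamed gene on the same strand shares 34.8% of its exon length. PSMB8, which replaces PSMB5 and is no member, had 1248 and 1385 in treated cells, against 2122 and 1807 in untreated ones, and fell by 0.57 ± 0.105 (limma, BH-adjusted p = 0.000913). PSMB9, which replaces PSMB6, had 87 and 77 in treated cells, against 204 and 168 in untreated ones, and fell by 1.17 ± 0.170 (limma, BH-adjusted p = 0.000144). In all of these genes every treated library was below every untreated one. The summed immune marker value was 74 to 99 in treated cells, against 101 to 106 in untreated ones, and its part in these falls was not tested.

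Of the activators, PSME2 fell and its partner PSME1 was not called. PSME1 and PSME2 form an interferon-induced ring that opens the core without ubiquitin. PSME2 had 2197 and 2388 in treated ASCL2 cells, against 3154 and 3546 in untreated ones, with no overlap, and fell 1.46-fold (log2 fold change -0.55 ± 0.086 SE, limma, BH-adjusted p = 0.000269). With the values of its 6 pseudogenes added, the fold change was -0.42 and was called (limma, BH-adjusted p = 0.000926). PSME1 had 5472 and 5882 in treated cells, against 5812 and 5339 in untreated ones, and its overlapping groups gave a log2 fold change of 0.03 ± 0.081 (limma, BH-adjusted p = 0.848). The sign of the PSME1 value turned negative with scaling to the library total (-0.018), without the second untreated library (-0.035) and without the second treated library (-0.026). PSMF1, which binds the core and inhibits it in purified preparations, had 5364 and 5344 in treated cells, against 4406 and 4385 in untreated ones, and rose by 0.28 ± 0.069 (limma, BH-adjusted p = 0.00672).

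Calls of PSMD4, PSMD13, PSMD14, PSMC4, PSMA5, PSMB2, PSMB6 and PSME2 in the ASCL2 line passed the threshold in each of the 18 alternative settings run. The calls of PSMA4, PSMB1, PSMB10 and PSMD6 were lost without any 1 of the 4 libraries of the line (limma, BH-adjusted p of 0.0524 to 0.17), PSMB7 without the second treated or second untreated library (0.09 and 0.0605), PSMC2 without the first treated or second untreated library (0.0648 and 0.0597) and PSMD3 without the first treated library (0.0854). Without the mean-variance trend in the fit all 9 of the other calls were lost, among them those of PSMD7 and PSMF1, which no other setting ended (limma, BH-adjusted p = 0.0528 and 0.0656). Without a filter on low values PSMA4, PSMB1, PSMB10 and PSMD6 lost theirs (limma, BH-adjusted p of 0.0668 to 0.0823).

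**Figure D2:**
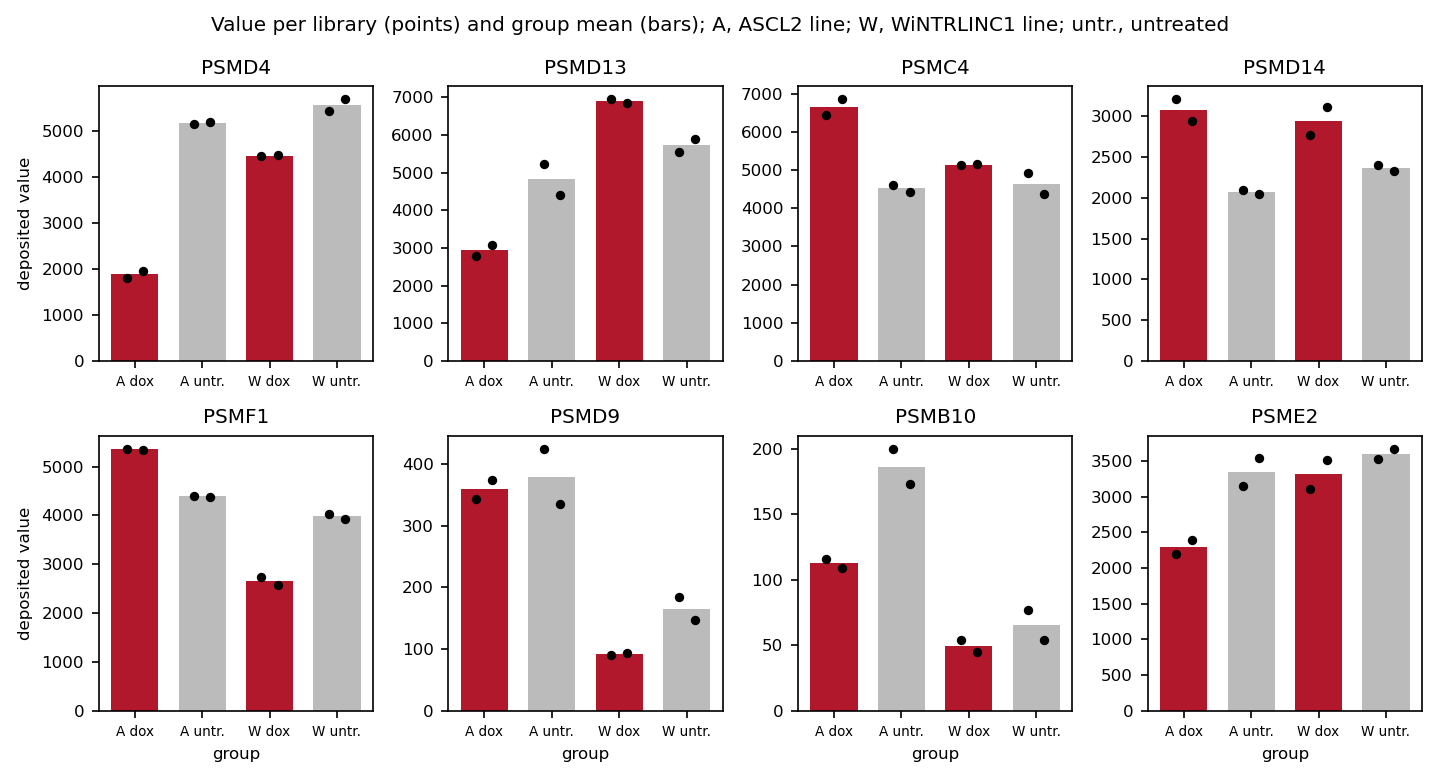
Each panel shows 1 gene, with the deposited value per library as points and the group mean as bars from 0. Red bars are libraries with doxycycline and grey bars untreated ones, for the ASCL2 line (A) and the WiNTRLINC1 line (W). PSMD4 is low in the treated ASCL2 line at 1801 and 1948, PSMF1 is higher with doxycycline in the ASCL2 line and lower in the WiNTRLINC1 line, and PSMD9 is low in the treated WiNTRLINC1 line at 91 and 93.

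The promoters of the members with the largest called rises and the most significant falls in the ASCL2 line are shown so that genes that moved one way can be set beside those that moved the other. Sequences are from RefSeq on GRCh38.p14, and 36 of the 41 members had a window of 250 bases before to 50 after the start of the gene. PSMA7, PSMB1, PSMB6, PSMB7 and PSMD4 had none. Printed are the 250 bases before the start, 5′ to 3′ on the strand of the gene, with matches to the searched motifs in capitals. The motifs were CCAAT, which the factor NF-Y binds, TGACNNNGC, the core of the antioxidant response element bound by NFE2L1 and its relatives, and CAGCTG, an E-box of the kind bound by ASCL2, each on both strands. The first 4 genes rose and the last 2 fell. The windows are chr2:161308175-161308424 on the plus strand for PSMD14, chr19:39970915-39971164 on the plus strand for PSMC4, chr1:109426449-109426698 on the minus strand for PSMA5 and chr16:74296564-74296813 on the plus strand for PSMD7. They are chr11:236726-236975 on the plus strand for PSMD13 and chr14:24146611-24146860 on the minus strand for PSME2.
PSMD14: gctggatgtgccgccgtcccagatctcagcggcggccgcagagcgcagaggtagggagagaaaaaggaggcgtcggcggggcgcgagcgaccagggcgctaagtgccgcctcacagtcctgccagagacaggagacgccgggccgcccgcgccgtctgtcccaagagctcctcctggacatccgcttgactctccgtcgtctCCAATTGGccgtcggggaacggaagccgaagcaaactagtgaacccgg
PSMC4: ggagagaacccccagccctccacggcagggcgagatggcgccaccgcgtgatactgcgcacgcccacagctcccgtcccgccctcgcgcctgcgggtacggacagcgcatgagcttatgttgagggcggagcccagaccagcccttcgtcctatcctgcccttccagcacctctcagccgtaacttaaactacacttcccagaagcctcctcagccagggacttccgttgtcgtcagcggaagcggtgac
PSMA5: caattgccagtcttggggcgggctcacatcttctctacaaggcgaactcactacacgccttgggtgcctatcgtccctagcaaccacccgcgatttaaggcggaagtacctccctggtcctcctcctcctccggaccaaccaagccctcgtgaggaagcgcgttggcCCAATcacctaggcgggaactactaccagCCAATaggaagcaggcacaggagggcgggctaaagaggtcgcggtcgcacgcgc
PSMD7: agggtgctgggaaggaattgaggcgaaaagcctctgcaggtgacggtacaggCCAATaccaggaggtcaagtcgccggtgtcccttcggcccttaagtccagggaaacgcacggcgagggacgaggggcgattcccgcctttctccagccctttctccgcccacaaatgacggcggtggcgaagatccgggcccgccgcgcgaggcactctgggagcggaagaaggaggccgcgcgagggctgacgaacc
PSMD13: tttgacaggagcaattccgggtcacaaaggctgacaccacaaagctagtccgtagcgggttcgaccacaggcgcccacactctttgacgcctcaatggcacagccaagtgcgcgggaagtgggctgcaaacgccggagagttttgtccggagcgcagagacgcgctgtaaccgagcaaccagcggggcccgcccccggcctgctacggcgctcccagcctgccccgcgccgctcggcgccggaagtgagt
PSME2: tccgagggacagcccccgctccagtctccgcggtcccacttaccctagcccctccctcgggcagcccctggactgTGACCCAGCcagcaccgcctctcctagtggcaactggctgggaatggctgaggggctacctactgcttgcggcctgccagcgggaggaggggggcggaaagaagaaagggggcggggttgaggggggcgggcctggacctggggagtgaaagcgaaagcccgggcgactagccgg

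PSMD14 held CCAAT at base -48 from the start and again on the opposite strand at -45, where the matches overlap in the letters CCAATTGG. PSMA5 held CCAAT at -83 and -54, and PSMD7 held it at -198. PSME2 held TGACNNNGC at -175, and PSMC4 held it only past the start, at base 28. No searched motif lay in the printed bases of PSMC4 or PSMD13. Over the whole windows CCAAT was in 17 of 36 members (47.2%), against 39.7% of the 27305 genes with a window, TGACNNNGC in 11 members (30.6%), against 16.1%, and CAGCTG in 5 members (13.9%), against 21.1%. CCAAT was in 7 of the 9 members that rose in the ASCL2 line and have a window, in 1 of 4 that fell and in 8 of 21 that were not called. In the WiNTRLINC1 line the same counts were 3 of 7, 0 of 2 and 13 of 25. A match is a string of letters in a window and says nothing of binding.

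In the WiNTRLINC1 line the called rises were all below 0.35 on the log2 scale, and the inhibitor PSMF1 and the chaperone PSMD9 showed the largest falls. Of the 39 tested members 11 were called, 8 higher and 3 lower, beside 18.6% of all tested genes (9.54% higher and 9.03% lower) and 32.5% of those averaging 500 or more. The members' share was 28.2%. Of the 14 core particle genes 3 rose and none fell, with a median log2 fold change of 0.18. In the regulatory particle 4 of 17 genes rose and 1 fell, with a median of 0.08. Without the second treated library the core median was 0.11, and without the first untreated or first treated library that of the regulatory particle was 0.16 or 0.14. The median over all tested genes was 0.01. Summed over the 39 tested members, the value was 0.618% and 0.629% of the library total with doxycycline, against 0.560% and 0.569% without it. In the ASCL2 line the same share was 0.569% and 0.555% with doxycycline, against 0.557% and 0.556% without it. Abundant genes weigh most in these sums. The geometric mean of the 39 members in the WiNTRLINC1 line was 2123 and 2209.6 with doxycycline, against 2107.9 and 2074.9 without it. In the ASCL2 line it was 2356.5 and 2376.5, against 2301 and 2235.3.

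The member with the smallest adjusted p was the inhibitor PSMF1, on chromosome 20. It had 2740 and 2579 in treated WiNTRLINC1 cells, against 4035 and 3933 in untreated ones. The groups were far apart, and PSMF1 fell by 0.58 on the log2 scale (± 0.069 SE, 2 libraries a group, limma, BH-adjusted p = 3.01e-05). Its neighbours FAM110A and TMEM74B had log2 fold changes of 0.03 and -0.04 that were not called (limma, BH-adjusted p = 0.904 and 0.906). PSMD9, a chaperone that guides ATPases into the base and does not stay in the finished particle, had 91 and 93 in treated cells, against 184 and 147 in untreated ones. Both treated libraries were below both untreated ones, and PSMD9 fell 1.78-fold (-0.83 ± 0.161, limma, BH-adjusted p = 0.00204). An overlap with other genes on the same strand covers 19.9% of its exon length.

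In the regulatory particle, PSMD4 had 4437 and 4472 in treated WiNTRLINC1 cells, against 5415 and 5684 in untreated ones, and fell 1.25-fold (log2 fold change -0.32 ± 0.071 SE, limma, BH-adjusted p = 0.00581). With PIPSL and the pseudogene added the value was -0.21 (limma, BH-adjusted p = 0.0467). PSMD14 had 2775 and 3114 in treated cells, against 2399 and 2327 in untreated ones, and rose by 0.32 ± 0.080 (limma, BH-adjusted p = 0.0127). The groups of PSMD4 and of PSMD14 did not overlap. The base scaffolds PSMD1 and PSMD2 rose by 0.26 ± 0.077 and 0.25 ± 0.072 on the log2 scale (limma, BH-adjusted p = 0.0302 and 0.0239). PSMD13 had 6956 and 6850 in treated cells, against 5559 and 5908 in untreated ones, and rose by 0.27 ± 0.087 (limma, BH-adjusted p = 0.044). None of the 6 ATPases of the base was called, with log2 fold changes between -0.07 and 0.19. Among them PSMC4 had 5142 and 5154 in treated cells, against 4917 and 4375 in untreated ones (0.15, limma, BH-adjusted p = 0.199). PSMD7, the partner of PSMD14, had 2707 and 2899 in treated cells, against 2614 and 2799 in untreated ones, and its overlapping groups gave 0.05 (limma, BH-adjusted p = 0.74).

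In the core particle, PSMA7 of the alpha ring had 7403 and 7844 in treated WiNTRLINC1 cells, against 6050 and 5966 in untreated ones, and rose 1.27-fold (0.34 ± 0.072 SE on the log2 scale, limma, BH-adjusted p = 0.00363). PSMB5 had 6196 and 5923 in treated cells, against 4971 and 4604 in untreated ones, and rose 1.27-fold (0.34 ± 0.080, limma, BH-adjusted p = 0.0079). PSMB2 had 2840 and 2970 in treated cells, against 2414 and 2370 in untreated ones, and rose 1.21-fold (0.28 ± 0.070, limma, BH-adjusted p = 0.0116). In these genes the treated libraries were all above the untreated ones. The other cutting subunits were not called. PSMB6 had 3229 and 3181 in treated cells, against 2827 and 2865 in untreated ones (0.17 ± 0.071, limma, BH-adjusted p = 0.116), and PSMB7 had 2948 and 3205, against 2878 and 2819 (0.11 ± 0.080, limma, BH-adjusted p = 0.401). PSMA5 had 3623 and 3283 in treated cells, against 3036 and 2915 in untreated ones (0.21 ± 0.076, limma, BH-adjusted p = 0.0648).

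The interferon-induced genes were not called in the WiNTRLINC1 line. PSMB10 had 54 and 45 in treated cells, against 77 and 54 in untreated ones, so the groups met at 54 (log2 fold change -0.38 ± 0.221 SE, limma, BH-adjusted p = 0.275). PSMB8 had 1318 and 1159 in treated cells, against 1089 and 950 in untreated ones (0.28 ± 0.105, limma, BH-adjusted p = 0.0797). PSMB9 had 197 and 182 in treated cells, against 146 and 139 in untreated ones (0.41 ± 0.170, limma, BH-adjusted p = 0.118). Treated libraries of PSMB8 and PSMB9 were above the untreated ones, opposite in sign to PSMB10. PSME1 had 4604 and 5216 in treated cells, against 4681 and 4456 in untreated ones (0.10 ± 0.081, limma, BH-adjusted p = 0.449), and PSME2 had 3116 and 3521, against 3525 and 3672 (-0.12 ± 0.086, limma, BH-adjusted p = 0.394). PSME4, a nuclear activator that binds acetylated histones, had 3862 and 3780 in treated cells, against 2991 and 3324 in untreated ones, and rose by 0.28 ± 0.075 (limma, BH-adjusted p = 0.0173).

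Without 1 library of the WiNTRLINC1 line, 4 to 7 members were called in place of 11: 7 without the first or the second untreated library, 6 without the first treated library and 4 without the second. PSMF1 and PSMD9 were called in each of the 18 settings. All 9 of the other calls were lost without the mean-variance trend. PSMD4 (limma, BH-adjusted p = 0.0792 there) lost its call in no other setting run. Without a filter on low values PSMB5, PSMD1, PSMD2, PSMD13, PSMD14 and PSME4 lost theirs (limma, BH-adjusted p of 0.0569 to 0.185). The call of PSMA7 was lost without the second treated library (0.0549), that of PSMB2 without the second treated or second untreated library (0.103 and 0.0578), that of PSMB5 without the first treated or second untreated library (0.0756 and 0.0744) and that of PSMD14 without the second treated or second untreated library (0.159 and 0.0738). PSMD1, PSMD2 and PSME4 lost theirs without the first untreated library or either treated one (0.0747 to 0.211), and PSMD13 without any 1 of the 4 libraries (0.0807 to 0.218) or without either treated ASCL2 library (0.0508 and 0.0506).

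**Figure D3:**
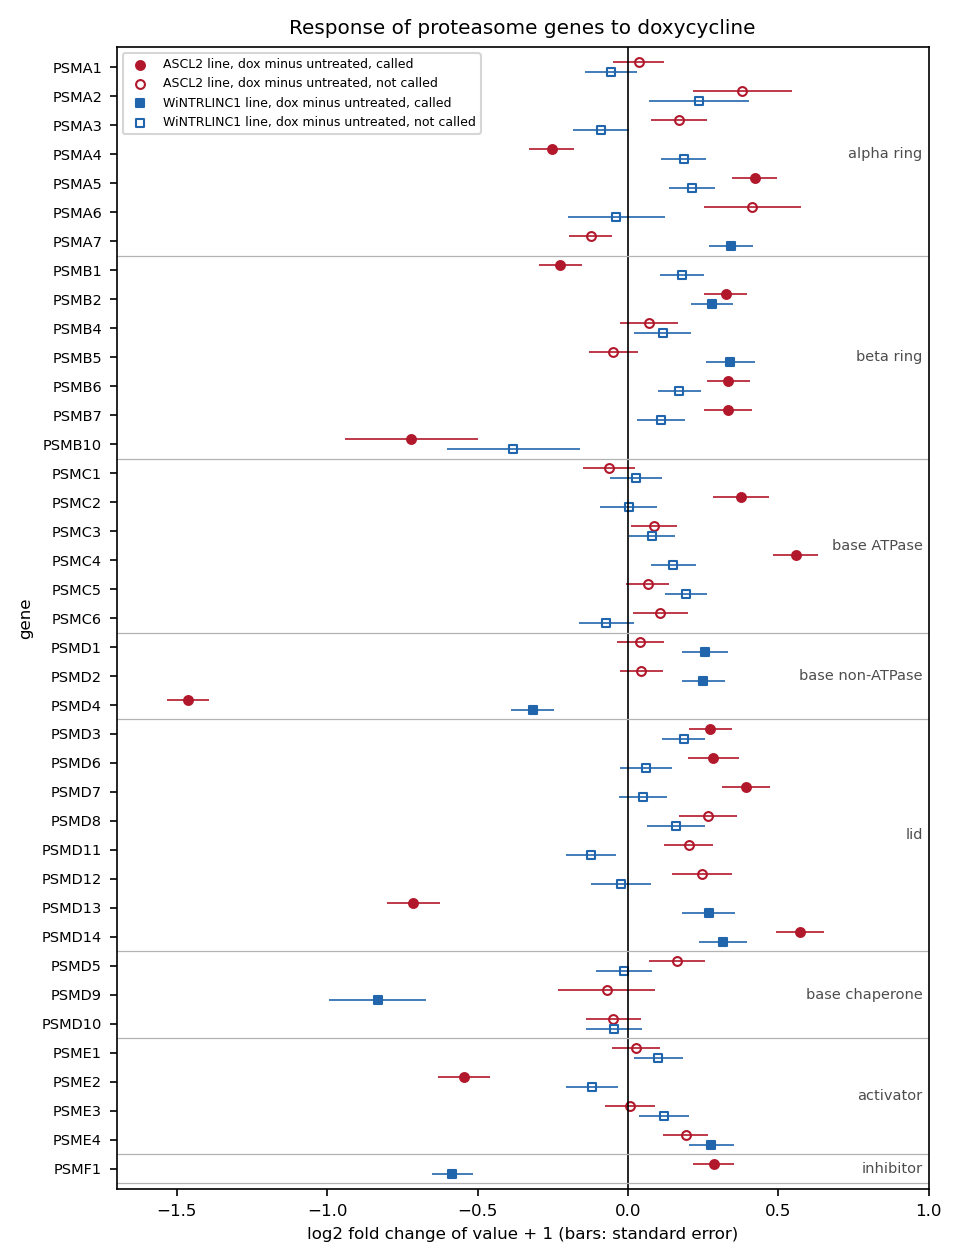
The horizontal axis is the log2 fold change of the deposited value + 1, doxycycline minus untreated, and each row is 1 tested member, grouped by its place in the proteasome. Red circles are the ASCL2 line and blue squares the WiNTRLINC1 line, filled where the adjusted p is under 0.05, and bars are standard errors. Filled points lie on both sides of 0 in both lines, and PSMD13 and PSMF1 have filled points on opposite sides.

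The doxycycline comparisons of the 2 lines share no library, although the fit took the spread from all 8 libraries together. PSMB2 and PSMD14 rose in both lines and PSMD4 fell in both. PSMD13 fell in the ASCL2 line but rose in the other, and PSMF1 did the reverse. The members called in the same direction in both lines were thus 3 of 39 (7.69%), beside 7.14% of all tested genes and 14% of those averaging 500 or more. Those called in opposite directions were 2 (5.13%), beside 1.94% and 3.88%. There were 16 tested members (41%, beside 63.9% and 40.1%) called in neither line, among them the base chaperones PSMD5 and PSMD10 and the activators PSME1 and PSME3.

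Members called in neither line included some of the most abundant ones. PSMB4 had 7818 and 7709 in treated ASCL2 cells, against 7440 and 7350 in untreated ones (log2 fold change 0.07 ± 0.095 SE, limma, BH-adjusted p = 0.641), and 5443 and 6291 in treated WiNTRLINC1 cells, against 4853 and 6010 in untreated ones (0.12 ± 0.095, limma, BH-adjusted p = 0.468). PSME3, the nuclear activator, had 5920 and 5177 in treated ASCL2 cells, against 5808 and 5222 in untreated ones, and 7391 and 8068 in treated WiNTRLINC1 cells, against 7188 and 7035 in untreated ones. Its fold changes were 0.01 and 0.12 on the log2 scale (limma, BH-adjusted p = 0.962 and 0.38). For both genes the spread within a group was as large as the gap between groups in at least 1 line.

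The remaining lid genes among the members were higher in both treated ASCL2 libraries than in the untreated ones without passing the test. PSMD8 had 2882 and 3554 in treated cells, against 2756 and 2572 in untreated ones (0.27 ± 0.097 on the log2 scale, limma, BH-adjusted p = 0.056). PSMD11, the lid subunit whose forced expression raises assembly in human stem cells, had 3848 and 3873, against 3384 and 3327 (0.20 ± 0.082, limma, BH-adjusted p = 0.0835). PSMD12 had 1741 and 1608, against 1270 and 1567 (0.25 ± 0.099, limma, BH-adjusted p = 0.0815), and its untreated libraries lay far apart. In the WiNTRLINC1 line the same genes had log2 fold changes of 0.16, -0.12 and -0.02 that were not called (limma, BH-adjusted p = 0.295, 0.353 and 0.91). The alpha subunits PSMA2 and PSMA6, which are uncertain for their copies, had log2 fold changes of 0.38 and 0.41 in the ASCL2 line (limma, BH-adjusted p = 0.108 and 0.0727).

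Whether the response differed between the lines was tested as the difference of the log2 fold changes, WiNTRLINC1 line minus ASCL2 line. Of the 39 members 10 (25.6%) differed, 7 with a positive and 3 with a negative difference, beside 15% of all tested genes (7.39% positive and 7.6% negative) and 26.9% of those averaging 500 or more. PSMD4 differed most, by 1.15 ± 0.101 on the log2 scale (limma, BH-adjusted p = 3.71e-06), since its fall was smaller in the WiNTRLINC1 line. PSMD13 differed by 0.98 ± 0.123 (limma, BH-adjusted p = 7.17e-05) and PSMF1 by -0.87 ± 0.098 (limma, BH-adjusted p = 2.74e-05), both with responses of opposite sign. These 3 differences were called in each of the 17 settings run for them.

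Of the 14 tested core genes 4 (28.6%) had a called difference, all of them positive, beside 15% of all tested genes and 26.9% of those averaging 500 or more. Called or not, 6 core differences were positive and 8 negative, with a median of -0.07. The called ones were PSMA7 (0.47 ± 0.102, limma, BH-adjusted p = 0.00573), PSMA4 (0.44 ± 0.106, limma, BH-adjusted p = 0.0104), PSMB1 (0.40 ± 0.103, limma, BH-adjusted p = 0.0144) and PSMB5 (0.39 ± 0.114, limma, BH-adjusted p = 0.0312). PSMA4 had 5392 and 5941 in treated WiNTRLINC1 cells, against 4785 and 5170 in untreated ones, and 3358 and 3253 in treated ASCL2 cells, against 3905 and 3978 in untreated ones. Doxycycline libraries of PSMA4 were thus above the untreated ones in the WiNTRLINC1 line and below them in the ASCL2 line, and PSMB1 stood likewise, with 5046 and 5566 against 4704 and 4650 in the WiNTRLINC1 line and 4262 and 4340 against 5166 and 4887 in the ASCL2 line. The difference of PSMA4 was not called without the second treated WiNTRLINC1 library (limma, BH-adjusted p = 0.0632). That of PSMB1 was lost without that library (0.0826), without the first treated ASCL2 library (0.0551) or without the first untreated ASCL2 library (0.056). The differences of PSMA4, PSMB1 and PSMB5 were also not called without the mean-variance trend (limma, BH-adjusted p = 0.118, 0.129 and 0.192). Nor were they called without a filter on low values (0.0554, 0.058 and 0.138). The difference of PSMA7 lost its call without the mean-variance trend (0.0952) and in no other setting. PSMB5 lost its call without any 1 of 6 libraries, all but the second untreated ASCL2 and the first untreated WiNTRLINC1 library (0.0631 to 0.131).

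Outside the core, PSMC4 differed by -0.41 ± 0.107 (limma, BH-adjusted p = 0.0169), the chaperone PSMD9 by -0.76 ± 0.228 (limma, BH-adjusted p = 0.0354) and the activator PSME2 by 0.43 ± 0.121 (limma, BH-adjusted p = 0.0265). The difference of PSMC4 lost its call without the second ASCL2 library of either kind, either treated WiNTRLINC1 library or the first untreated one (0.0572 to 0.0822). That of PSMD9 lost its call without any 1 of 6 libraries, all but the first untreated ASCL2 and the second untreated WiNTRLINC1 library (0.0735 to 0.138). That of PSME2 lost its call without the first treated or second untreated ASCL2 library, or without the second treated or first untreated WiNTRLINC1 library (0.0844 to 0.131). The differences of PSMC4, PSMD9 and PSME2 were also not called without the mean-variance trend (limma, BH-adjusted p = 0.146, 0.124 and 0.181). Nor were they called without a filter on low values (0.0795, 0.136 and 0.141). PSMB8 and PSMB9 also differed, by 0.86 ± 0.149 and 1.58 ± 0.241 on the log2 scale (limma, BH-adjusted p = 0.00109 and 0.000384), while PSMB10 did not pass the test (0.34 ± 0.313, limma, BH-adjusted p = 0.546).

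**Figure D4:**
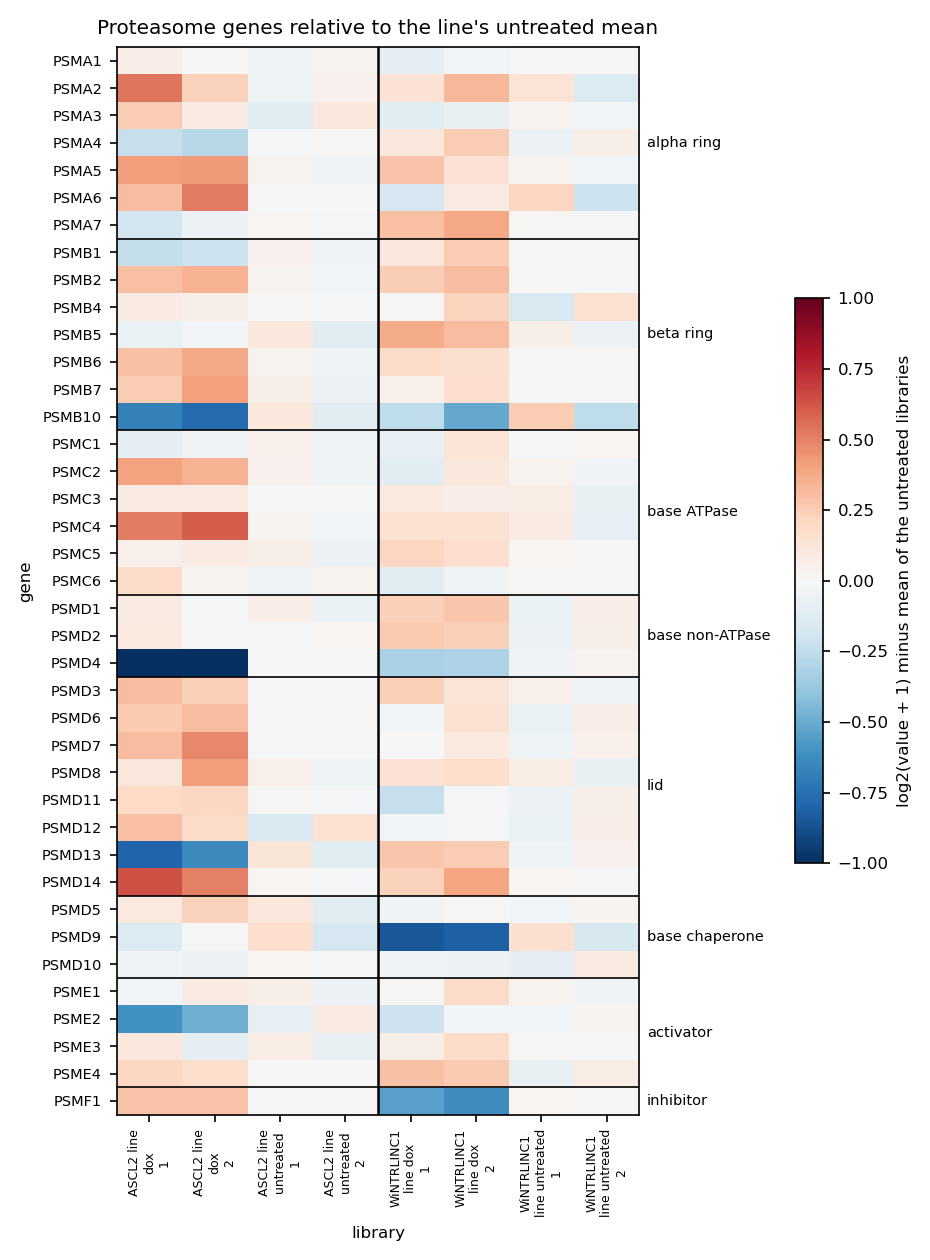
Each row is 1 tested member and each column 1 library, and colour gives log2(value + 1) minus the mean of the 2 untreated libraries of the same line. PSMD4 in the treated ASCL2 libraries lies beyond the lower end of the colour scale, and PSMD13 is blue there and red in the treated WiNTRLINC1 libraries. Most lid rows are red in the treated ASCL2 libraries.

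Untreated cells of the lines differed in part of the subunits, a smaller share than among all tested genes. The comparison of untreated WiNTRLINC1 with untreated ASCL2 cells called 19 of 39 members (48.7%), 8 higher and 11 lower, beside 55.2% of all tested genes (25.7% higher and 29.5% lower) and 69.1% of those averaging 500 or more. It uses the same untreated libraries as the doxycycline comparisons. The summed fibroblast markers were 100 to 111 in untreated WiNTRLINC1 cells, against 303 to 309 in untreated ASCL2 cells, with COL1A1, a collagen gene, at 20 and 19 against 200 and 222 (log2 fold change -3.37, limma, BH-adjusted p = 2.52e-07). LUM of the same list went the other way, at low values of 10 and 13 against 1 and 0 (3.13, limma, BH-adjusted p = 0.00758). Of the 4 tested fibroblast markers 1 was thus called higher and 1 lower. The immune sum was 38 to 70, against 101 to 106, the endothelial sum 26 to 28, against 13 to 33, and the colon epithelium sum 129620 to 135394, against 193858 to 218708. The part of these differences in the values of the members was not tested. In the core particle 2 genes were higher and 4 lower, and in the regulatory particle 4 were higher and 4 lower. PSMD2, the base scaffold that docks ubiquitin shuttles, had 11022 and 11956 in untreated WiNTRLINC1 cells, against 7724 and 7956 in untreated ASCL2 cells, 1.46-fold higher (0.55 ± 0.072 SE on the log2 scale, limma, BH-adjusted p = 1.21e-05).

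Several weakly expressed members were lower in the WiNTRLINC1 line. PSMB10 had 77 and 54 in untreated WiNTRLINC1 cells, against 200 and 173 in untreated ASCL2 cells, 2.86-fold lower (limma, BH-adjusted p = 3.75e-05). PSMD9 had 184 and 147, against 425 and 335, 2.29-fold lower (limma, BH-adjusted p = 1.75e-05). The alpha subunit PSMA6 had 184 and 136, against 338 and 339, 2.13-fold lower (limma, BH-adjusted p = 4.11e-05). For each of these the untreated groups of the lines did not overlap. PSMA2, another weakly expressed member, had 164 and 136, against 169 and 179, and was not called (log2 fold change -0.22, limma, BH-adjusted p = 0.282). The lid subunit PSMD8 was 1.58-fold lower, at 1779 and 1598 against 2756 and 2572 (limma, BH-adjusted p = 3.9e-05), and PSMB2 was 1.39-fold lower, at 2414 and 2370 against 3389 and 3276 (limma, BH-adjusted p = 4.03e-05). Calls of 14 of the 19 members passed in each of the 18 settings. PSMC5, PSMD1, PSMD6, PSMD13 and PSME1 lost theirs in at least 1 setting, also without single libraries (limma, BH-adjusted p of 0.0545 to 0.268).

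Proteins that assemble the proteasome or join it from outside the rule were read beside the members. Of 16 such genes, 4 rose and 1 fell with doxycycline in the ASCL2 line, and 5 rose and none fell in the WiNTRLINC1 line, with median log2 fold changes of 0.09 and 0.14. Over all tested genes 26.6% and 18.6% were called in these lines, and 45.2% and 32.5% of those averaging 500 or more. POMP, which drives the maturation of the core, rose in both lines, by 0.57 ± 0.103 and 0.37 ± 0.103 on the log2 scale (limma, BH-adjusted p = 0.000771 and 0.0192). In the ASCL2 line ZFAND5, an activator that binds the particle, rose by 0.52 ± 0.084 (limma, BH-adjusted p = 0.000356), and ECPAS, a scaffold protein of the proteasome, by 0.33 ± 0.070 (limma, BH-adjusted p = 0.00284). UBE3C, a ubiquitin ligase bound to the proteasome, fell by 0.64 ± 0.074 there (limma, BH-adjusted p = 1.71e-05). In the WiNTRLINC1 line the core assembly chaperones PSMG3 and PSMG4 rose by 0.46 ± 0.111 and 0.43 ± 0.110, and PITHD1 by 0.44 ± 0.085 (limma, BH-adjusted p = 0.00936, 0.0132 and 0.00211).

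The factors that switch on proteasome genes moved unevenly. NFE2L1, the main activator of subunit genes when the proteasome is impaired, was not called in either line, with log2 fold changes of 0.07 for the ASCL2 line and -0.10 for the WiNTRLINC1 line (limma, BH-adjusted p = 0.553 and 0.377). Its relative NFE2L2 rose by 0.25 ± 0.083 in the ASCL2 line but fell by 0.25 ± 0.083 in the other (limma, BH-adjusted p = 0.0363 and 0.047). The small partner MAFF rose in both lines, by 1.18 ± 0.139 and 0.79 ± 0.139 (limma, BH-adjusted p = 2.09e-05 and 0.000985). MAFK and NGLY1, the enzyme that removes sugars from NFE2L1, rose in the ASCL2 line by 0.63 ± 0.110 and 0.52 ± 0.113, and MAFG fell by 0.38 ± 0.088 (limma, BH-adjusted p = 0.00065, 0.00329 and 0.00469). DDI2, the protease that cleaves NFE2L1, rose in the WiNTRLINC1 line by 0.32 ± 0.082 (limma, BH-adjusted p = 0.0116). In all, 4 of these 8 genes were called higher and 1 lower in the ASCL2 line, against 2 higher and 1 lower in the WiNTRLINC1 line. The called shares of all tested genes were 26.6% and 18.6%, and those of genes averaging 500 or more 45.2% and 32.5%.

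Upstream of the proteasome, UBA6, an enzyme that activates ubiquitin, rose by 0.44 ± 0.106 on the log2 scale in the ASCL2 line (limma, BH-adjusted p = 0.0068) and was not called in the WiNTRLINC1 line (0.0074 ± 0.106, limma, BH-adjusted p = 0.975). Of 15 genes for the p97 unfoldase, its cofactors and ubiquitin shuttles, 4 were called higher and 1 lower in the ASCL2 line, and 1 higher and 2 lower in the WiNTRLINC1 line. Among all tested genes the called shares were 26.6% and 18.6%, and 45.2% and 32.5% among those averaging 500 or more. The p97 cofactor NPLOC4 rose by 0.35 ± 0.072 in the ASCL2 line but fell by 0.32 ± 0.072 in the other (limma, BH-adjusted p = 0.00216 and 0.00547). FAF2 of the same list rose in both lines, by 0.27 ± 0.072 and 0.36 ± 0.072 (limma, BH-adjusted p = 0.0113 and 0.00243). FAF1 fell by 0.74 ± 0.092 in the WiNTRLINC1 line (limma, BH-adjusted p = 4.78e-05), UBXN7 fell by 0.66 ± 0.092 and the shuttle UBQLN1 rose by 0.39 ± 0.079 in the ASCL2 line (limma, BH-adjusted p = 9.56e-05 and 0.00192).

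The COP9 signalosome, which is built like the lid and removes the ubiquitin-like protein NEDD8, was the closest structural relative examined. Of its 9 genes 4 were called higher and 2 lower in the ASCL2 line, and none higher and 3 lower in the WiNTRLINC1 line. Beside these counts stand 26.6% and 18.6% of all tested genes, and 45.2% and 32.5% of those averaging 500 or more. COPS3 fell by 0.97 ± 0.081 and COPS5, the counterpart of PSMD14, fell by 0.42 ± 0.077 in the ASCL2 line, while COPS8 rose by 0.53 ± 0.108 and COPS4 by 0.42 ± 0.080 (limma, BH-adjusted p = 8.42e-07, 0.000939, 0.00204 and 0.00121). COPS7A rose by 0.36 ± 0.080 in the ASCL2 line but fell by 0.66 ± 0.080 in the other (limma, BH-adjusted p = 0.00367 and 3.75e-05).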

How the data were processed

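RNA was sequenced in 8 libraries, 2 in each of 4 groups named by the sample titles. Per the labels' protocols, RNA was isolated with Trizol, fragmented with RNase III and sequenced on the Ion Proton. The submitters' processing notes list TopHat2 2.0.9, cutadapt, DESeq and Cufflinks, and 3 genome builds (GRCh37, hg19, mm9) whose use is not stated. How reads were counted, and whether by strand, is not given in the sources used here. Gene values as deposited are scores that look like read counts scaled per library and rounded, a reading from the values alone: in the first untreated ASCL2 library 2248 genes have the value 2, 0 genes the value 3 and 1547 genes the value 4. Read depth per library is not known from the totals, and precision is limited by it and by 2 libraries per group.

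Of 57736 identifiers 39501 matched a symbol, and the others held 2.34% of the value. The GENCODE annotation gave gene type, chromosome, exon overlap and transcript length, and RefSeq gave the promoters. The 22100 genes that reached 10 in 2 or more libraries were fitted with limma 3.58.1 (R 4.3.3) to log2(value + 1), with the variance trend modelled, all 8 libraries in 4 groups and no covariate. A gene was called where p, adjusted over all tested genes by the Benjamini-Hochberg method (BH), was under 0.05. Fold changes on this scale understate changes of low genes. Degrees of freedom were 4 residual and 10.5 prior, and the procedure was tested on simulated data. The members and gene lists were chosen with earlier results of these data known. Every member called in a doxycycline comparison was named, and values per library were given for the 8 with the smallest adjusted p in each, PSMB5, PSMB6, PSMB7, PSMB10, PSME1 and PSME2. In the comparisons between the lines the 6 with the smallest adjusted p were named, and further called members were named after their values were seen. From each gene list up to 4 genes per comparison were named. Some genes of the list of ubiquitin and its activating enzymes are not reported here, nor are counts over that list. PSMB3, WiNTRLINC1 and the mitochondrially encoded transcripts are not analysed here. Alternatives varied the scaling, pseudocount, filter, trend, libraries, replicate block and the treatment of copies.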

Additional observations from a re-analysis of the deposited data

Results flagged for a closer look

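The following 10 members were flagged because the response to doxycycline differed between the lines by limma's test of the difference itself, at a Benjamini-Hochberg adjusted p under 0.05 over all genes. The values are differences of log2 fold changes, WiNTRLINC1 line minus ASCL2 line. In the regulatory particle PSMD4 differed by 1.15, PSMD13 by 0.98 and PSMC4 by -0.41. In the core particle PSMA7 differed by 0.47, PSMA4 by 0.44, PSMB1 by 0.40 and PSMB5 by 0.39. The chaperone PSMD9 differed by -0.76, the activator PSME2 by 0.43 and the inhibitor PSMF1 by -0.87. Exon sequence shared with PIPSL for PSMD4 and with pseudogenes for PSME2 moved with these values: with the copies added, the differences were 1.11 and 0.43. Groups of 2 libraries are too small to test single libraries as outliers.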

How the results depend on the processing

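Of 1142 checks of 64 member values over up to 18 alternatives, 998 kept their direction and side of the threshold, 139 kept their direction and lost the call, and 5 changed sign. The sign changes were PSMB5 in the ASCL2 line (0.055 without its first untreated library; -0.15 to 0.055 over single libraries left out), PSME1 in the ASCL2 line (-0.018 with scaling to the library total, and -0.035 to 0.088 over single libraries left out, negative without the second untreated or second treated library) and PSME2 in the WiNTRLINC1 line (0.0064 with pseudogene values added), all values that were not called. Without the mean-variance trend, called members numbered 8 in the ASCL2 line, 2 in the WiNTRLINC1 line and 3 in the difference, and called genes 3410, 1873 and 1313, in place of 5884, 4104 and 3314. Without a filter on low values, called members numbered 5 in the WiNTRLINC1 line and 4 in the difference, and called genes 2395 and 1914. The cause was not tested. Leaving out 1 library at a time gave 12 to 18 called members and 3665 to 5862 called genes in the ASCL2 line, the fewest genes without its second treated library. It gave 4 to 11 members and 2398 to 4131 genes in the WiNTRLINC1 line, 6 to 9 members and 2315 to 2891 genes in the difference, and 16 to 19 members and 10458 to 12002 genes between untreated lines. The median log2 fold change of the core in the ASCL2 line lay between 0.07 and 0.23 over all alternatives, with the highest value when no filter was used. Without the filter PSMA8 and PSMB11, with values of 0 to 7, enter the core set, so that median covers other genes than the rest. The median of the regulatory particle lay between 0.12 and 0.20.

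The labels link same-numbered libraries by a number alone, and whether these were handled together is not known. Their deviations correlated at -0.14 for the ASCL2 line and 0.30 for the WiNTRLINC1 line. With the replicate block, 17 members were called in the ASCL2 line, 11 in the WiNTRLINC1 line, 11 in the difference and 20 between untreated lines, and 5962, 4182, 3403 and 12261 genes. With the ASCL2 line's numbers crossed in the block, chosen after seeing the data, the counts were 21, 14, 12 and 22 members and 6544, 4707, 3907 and 12565 genes. Adding pseudogene values, also chosen after seeing the data, gave 20, 12, 10 and 21 members and 5887, 4106, 3314 and 12206 genes. Depth is not known from these values, and 2 libraries per group limit the precision of every fold change.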
